A study of Mus musculus with 56 samples.

Results

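SM37 is a modified form of SMART, a PCR-based method that makes enough cDNA for a microarray from a small amount of RNA. A pair of technical replicates, made by 2 parallel SM37 amplifications of the same total RNA, was compared on 2 of the 56 arrays of the series. The RNA came from OV, an epithelial line of mouse ovary. Array 1 held replica 1 in Cy3 and replica 2 in Cy5, and array 2 held the same pair with the dyes swapped. Each amplification started from 10 ng of RNA by the study's design, although the labels of both arrays print the amount in micrograms. Of 21766 oligonucleotide probes that are no controls, 2783 (12.8%) had a value on both arrays, and these stood for 2230 of the 15063 genes on the array. The other arrays used below compared replicas of OV made from 10 ng by SMART, GA and IVTIII or from 100 ug without amplification, and OV with 3T3, a mouse fibroblast line, by SM37 from 10 ng of each.

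In SMART, reverse transcription starts from an oligo(dT) primer on the poly(A) tail. When the enzyme reaches the end of the RNA it switches to an added oligonucleotide, so that the cDNA carries a known sequence at both ends and can be amplified by PCR. SM37 used a lower temperature and another oligo(dT) primer in that first step. Both replicas came from RNA of the same cells, so the ratio between them compares amplified targets and not expression in cells.

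The measurement was the log2 ratio of both dyes, which the authors normalized within each array. With Cy5 taken as the numerator, each ratio was turned by the dye labels to replica 1 over replica 2. The study gives the direction of the ratio both ways. Cy5 over Cy3 is the likely one. Read so, the 4 SM37 arrays of OV against 3T3 gave a log2 ratio of 2.24 ± 0.86 (SD, n = 4) for Xist, the noncoding RNA that silences an X chromosome. Krt8, an epithelial keratin, was at 1.54 ± 0.21 (SD, n = 4), and both were higher in OV. Fibroblast markers went both ways by this reading. Among them Prrx1 (-1.14 ± 0.32) and Col1a2 (-0.52 ± 0.13) were lower in OV, whereas Col1a1 (0.55 ± 0.48) was higher (SD, n = 4). Pdpn averaged 0.84 ± 1.42 (SD, n = 4), from -0.21, 2.93, 0.26 and 0.37 on the single arrays, and so had no clear direction. Dcn, a matrix proteoglycan, was also higher, at 1.82. By the paper the 4 arrays include dye swaps of independent replicates, so that n counts arrays and not amplifications. The replica numbers are arbitrary, and with the other direction every sign below would turn while the genes that go together stay the same. By the labels both arrays hold the same pair of amplifications, so that the error between them is that of labelling and hybridization, and n is 1 pair.

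Fewer probes gave values here than on the other SM37 arrays. Array 1 had a value for 5822 probes and array 2 for 5647, against 10009 to 12812 on the SM37 arrays of OV against 3T3. Of the probes on array 1, 47.8% also had a value on array 2, and of those on array 2, 49.3% had one on array 1. Probes measured on both were mostly ones that other targets also detected: 93.5% had a value for unamplified cDNA and 87.6% on both SMART replica arrays, against 71.0% and 24.1% of the probes measured on neither SM37 replica array. Intensities were not used here, and the reason for a missing value is not given in the sources used here. Of 23 marker genes of mesothelium and the surface epithelium of the ovary, 8 were measured on both arrays. None of these 8 was called, where 7.13% of all genes were, so that the lack of calls says little. Msln, which encodes mesothelin, lay at 0.20 on array 1 and 0.26 on array 2, whereas the keratins Krt7, Krt8, Krt18 and Krt19 had no value on either array. None of 14 immune cell markers had a value on both, and of 8 endothelial and erythroid markers Vwf alone did.

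The differences between the replicas recurred in part when the dyes were swapped. Across the 2783 probes the turned ratios correlated with Pearson's r of 0.579 and Spearman's rho of 0.581, a description across probes that are not independent, and 1973 probes (70.9%) had the same sign on both. The coefficient of repeatability (CR), defined as 2 SD over probes of the log2 ratio, was 0.842 for array 1 and 0.785 for array 2. It was 0.723 for the average of both and 0.374 for the part that stayed with the dye when the arrays were not turned. Control probes gave narrower ratios: over 174 of them the averaged ratio had an SD of 0.12 and lay between -0.34 and 0.36, and none passed 0.5 in size, as 15.2% of the other probes did.

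A gene or probe was called different between the replicas where limma's empirical Bayes method gave a log odds (LOD) above 0. The fit gave each gene the same standard error, 0.19 on the log2 scale (n = 2 arrays), so that a call meant a mean ratio of at least 0.68 in size, and it compares these 2 targets and no wider group of amplifications. By this rule 195 probes (7.01%) were called, 103 higher in replica 1 (3.7%) and 92 lower (3.31%), and 193 of them had 1 sign on both arrays. Of these probes 140 lay over 0.5 in size on each array. Over genes, 159 were called (7.13%), 82 higher (3.68%) and 77 lower (3.45%). The 4 SM37 arrays of OV against 3T3 were then added to estimate the error of each gene measured there. They include independent replicates and dye swaps, so that their error mixes differences between amplifications with those of labelling and hybridization. In that fit 88 genes were called (3.95%), 41 higher (1.84%) and 47 lower (2.11%), of which 83 were among the 159. An average ratio over 2-fold was reached by 40 probes (1.44%), 25 higher (0.898%) and 15 lower (0.539%), and 14 probes passed 2-fold in the same direction on each array.

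**Figure D1:**
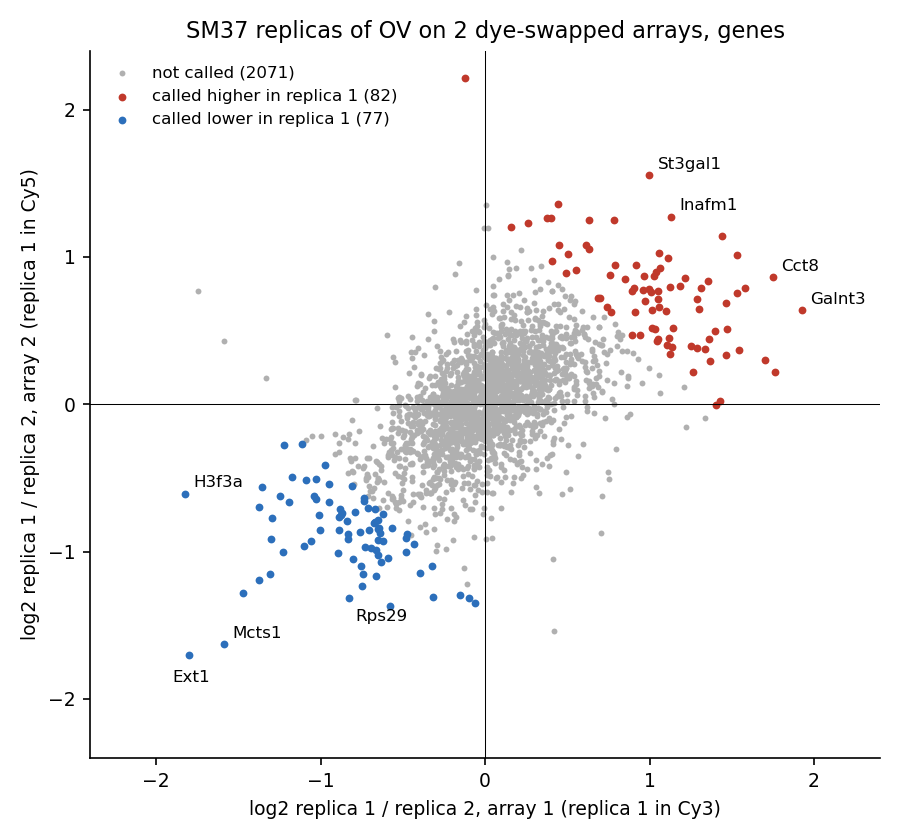
Log2 ratio of replica 1 over replica 2 for each of 2230 genes on array 1 (x axis) and array 2 (y axis), with called genes in red (82 higher in replica 1) and blue (77 lower). Called genes lie in the lower left and upper right, apart from Prh1 at -0.12 and 2.21 and Med12, which was at 1.41 on array 1 and near 0 on array 2.

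The lowest gene was Ext1, a glycosyltransferase that builds heparan sulfate chains. It had a log2 ratio of -1.80 on array 1 and -1.70 on array 2, a mean of -1.75 or 3.37-fold lower in replica 1 (LOD 36.8). Both arrays put it far outside the range of the control probes. Mcts1, a translation re-initiation factor, followed with -1.59 and -1.63, 3.05-fold lower (LOD 30.1). Abi3, an adaptor of the actin-regulating WAVE complex, was at -1.47 and -1.28 (mean -1.38). Stambp, an endosomal deubiquitinase, was at -1.37 and -1.19 (mean -1.28). In these 4 genes the arrays differed by less than 0.20. The same held for Nme7, a nucleoside diphosphate kinase family member, at -1.31 and -1.15 (mean -1.23), and for Rnf11, a RING finger protein, at -1.06 and -0.93 (mean -0.99).

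Most other low genes depended more on the array. H3f3a, which encodes the replacement histone H3.3, was at -1.82 on array 1 but -0.61 on array 2, with a mean of -1.21 (LOD 14.3). Itgav, the integrin alpha V chain, was at -1.38 and -0.70, and Rps29, a small ribosomal subunit protein, was at -0.83 and -1.32. Both were called, with means of -1.04 and -1.07. Dmap1, a subunit of a histone acetyltransferase complex, had a mean of -1.12, Med24, a Mediator subunit, of -1.11 and Fancg, of the Fanconi anaemia core complex, of -1.03. Each of these had 1 sign on both arrays. C1qb, a chain of the complement protein C1q whose symbol the naming rule takes for a clone name, was at -1.10 and -0.96, and it was picked out after its values were seen.

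At the other end stood Cct8, a subunit of the CCT chaperonin that folds actin and tubulin. Its log2 ratio was 1.75 on array 1 and 0.86 on array 2, with a mean of 1.31 or 2.48-fold higher in replica 1 (LOD 17.7). Next came a pair of enzymes of O-glycan synthesis, Galnt3, which starts the chain, at 1.93 and 0.64 (mean 1.28), and St3gal1, which caps it with sialic acid, at 1.00 and 1.55 (mean 1.28). They lay together in the mean, but each was led by a different array. Inafm1 was at 1.13 and 1.27 (mean 1.20) and Erbb4, a receptor tyrosine kinase, at 1.06 and 1.03 (mean 1.04), and in both the arrays lay within 0.20 of each other.

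The remaining high genes had larger ratios on array 1 in most cases. Sulf2, a sulfatase that removes sulfate from heparan sulfate outside the cell, was at 1.58 and 0.79 (mean 1.19). Slc9a2, a sodium/proton exchanger, was at 1.53 and 0.76 (mean 1.14), Ces1c, a carboxylesterase, at 1.35 and 0.84 (mean 1.10) and Arrb1, which encodes beta-arrestin 1, at 1.32 and 0.79 (mean 1.05). All of these were higher in replica 1 on both arrays. Tsix, the antisense RNA of Xist, was at 1.46 and 0.68 (mean 1.07). The amplified cDNA has both strands, so that transcripts of Xist and Tsix over a shared stretch cannot be told apart, and Xist itself had a value of -0.40 on array 1 and none on array 2. Nfam1, an adaptor of immune receptors, had a mean of 1.03 and Bhlhe40, a transcriptional repressor, of 1.02. Prh1, a salivary proline-rich protein, had a mean of 1.05 from -0.12 on array 1 and 2.21 on array 2; it was not called when the 4 other SM37 arrays estimated the error.

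These genes were nearer to 0 in the technical replicates of other targets. All 24 genes just named by the rule, 12 at each end, were also called in the fit over 6 SM37 arrays. In size they began at 0.99 between the SM37 replicas. That fit took each ratio from the same SM37 replica arrays, so that its calls are no independent check. Arrb1, Nfam1 and Fancg had no value on any of the 4 added arrays. The same 24 genes spanned -0.10 (Nme7) to 0.22 (Ces1c) between unamplified replicas, which had 1 array. They spanned -0.24 (H3f3a) to 0.32 (Erbb4) in SMART replicas for the 22 genes measured there, or -0.43 (Slc9a2) to 0.30 (Itgav) averaged as deposited, and -0.17 (Galnt3) to 0.26 (Ext1) in IVTIII replicas for 17 genes, IVTIII being 3 rounds of T7-based amplification. In GA, a PCR method that adds a poly(A) tail to the cDNA, 19 were measured and 3 passed 0.5 in size: Itgav at -0.77, Rps29 at -0.61 and Cct8 at 0.51. Each of these averages came mostly from array 2 of GA. Itgav was at 0.07 and -1.61 on the GA arrays, Rps29 at -0.03 and -1.19 and Cct8 at 0.18 and 0.83. Averaged as deposited, 4 passed 0.5 in GA: Itgav at -0.84, Tsix at -0.61, Rps29 at -0.58 and Bhlhe40 at -0.51, while Cct8 was at 0.32. The genes were chosen for their ratios in SM37, so that smaller values elsewhere are a description. The SMART and GA arrays correlated negatively once turned, so that averages of either kind are given, and the replica numbers of different methods are unrelated.

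**Figure D2:**
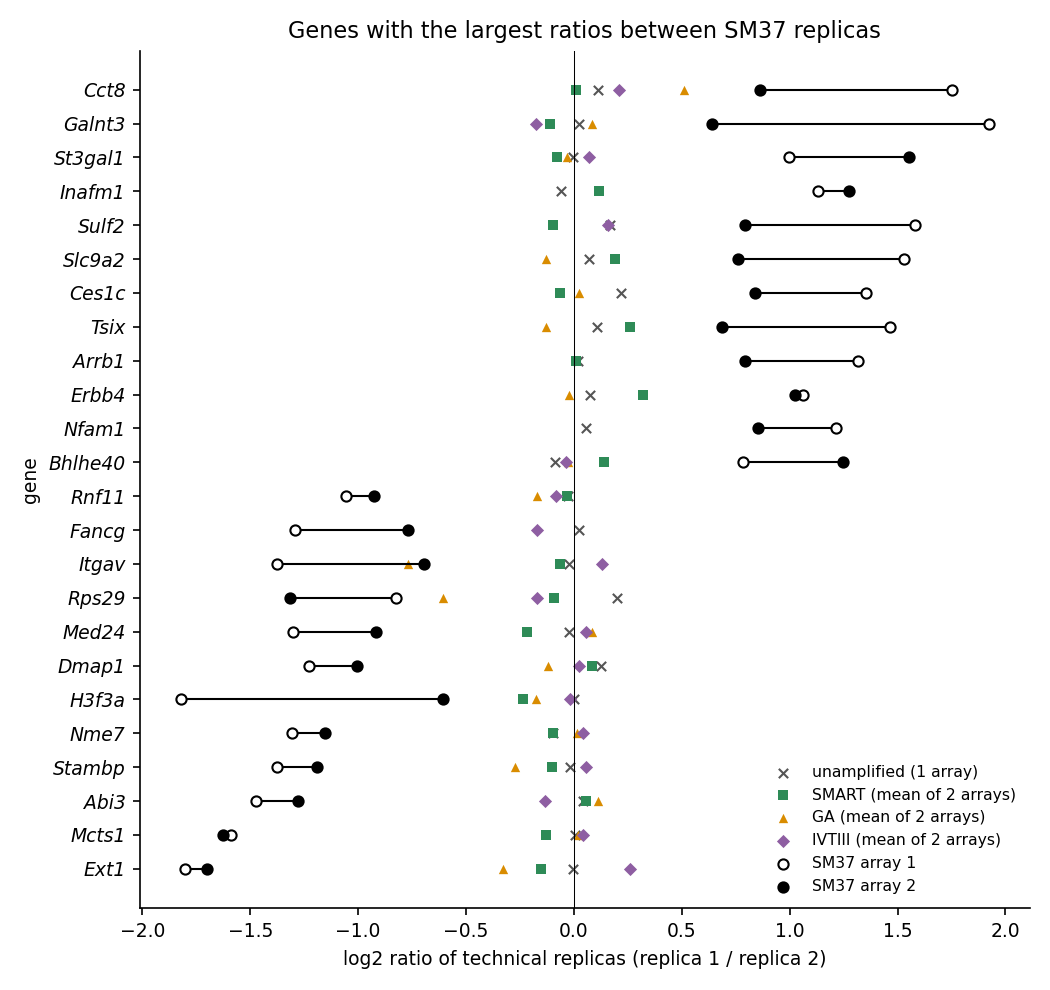
Log2 ratio of replica 1 over replica 2 for the 12 highest and 12 lowest called genes, with array 1 as open circles, array 2 as filled circles joined by a line, and the same genes in replicas of unamplified cDNA (cross), SMART (square), GA (triangle) and IVTIII (diamond). H3f3a and Galnt3 have the widest gap between SM37 arrays. In GA Itgav reaches -0.77, the mean of 0.07 and -1.61 on the GA arrays.

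Gene families were described by their counts and medians beside those over all genes. Over all 2230 genes the median log2 ratio was 0.02, and 47.5% lay below 0. The families held 358 measured genes, of which 20 were called lower (5.59%) and 3 higher (0.84%), beside 3.45% and 3.68% of all genes. Of 30 families with at least 4 measured genes, 22 had a median below 0 and 8 above. The median was below 0 on both arrays in 16 of the 30 and above 0 on both in 6. No test across family members was made, since genes share arrays and targets.

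Genes of the translation machinery lay mostly below 0. Of 209 on the array, 99 were measured (47.4%), with a median of -0.15, and 73 lay below 0. Calls among these 99 were 6 lower and 0 higher, beside 3.45% of all genes called lower, 3.68% higher and 7.13% in either direction. The small ribosomal subunit had 21 of 25 genes measured, a median of -0.20 (-0.27 on array 1 and -0.20 on array 2) and 14 genes below 0 on both arrays. Besides Rps29, none of them was called, and the next were Rps4x at -0.70 and -0.59 and Rps28 at -0.67 and -0.57. The large subunit had 31 of 41 genes measured, with a median of -0.13 (-0.23 on array 1 and -0.21 on array 2), and 19 below 0 on both. Rpl3 was at -0.70 and -0.98, Rpl41 at -0.64 and -0.87 and Rpl28 at -0.32 and -1.10. These 3 were called lower, whereas Rpl6 at 0.63 and 0.11 and Rpl36a at 0.26 and 0.29 lay above 0 without a call. In the fit over 6 arrays Rps29 alone kept its call among cytosolic ribosomal proteins, and ribosomal protein genes have many near-identical processed copies, which a probe may also bind.

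Mitochondrial ribosomal proteins, which translate the mitochondrial genome, leaned the same way. Of 17 genes measured, 14 lay below 0 on both arrays and 0 above 0 on both, with a median of -0.17. Mrpl39, of the large mitochondrial subunit, was called lower at -0.62 and -0.93. Mrps34, of the small one, was at -0.71 and -0.62 and was called in the fit over 6 arrays alone. Among 23 translation factors the median was -0.06, with 9 below 0 and 8 above 0 on both arrays. Eif4a2, an RNA helicase of translation initiation, was called lower at -0.71 and -0.70, averaged over 2 probes. Of these, 1 was at -1.12 and -0.55 and was called, and the other was at -0.30 and -0.85 and was not. Of 7 aminoacyl-tRNA synthetases, which charge tRNAs, 6 lay below 0 on both arrays (median -0.39). None was called, beside 7.13% of all genes, which says little for 7 genes. Hars was at -0.59 and -0.60, Wars at -0.59 and -0.36 and Kars, the exception, at 0.22 and 0.26.

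Respiratory chain genes had few calls, and these were lower. For complexes II to IV and cytochrome c, 10 of 31 genes were measured, with a median of -0.37, and 7 lay below 0 on both arrays. Cox6a1, a subunit of cytochrome c oxidase, was called lower at -0.79 and -0.73, and Uqcr11, of complex III, with a mean of -0.74. Neither was called in the fit over 6 arrays, where Cox5a was, at -0.71 and -0.55. Complex I, with 9 of 31 genes measured, spanned both directions around a median of -0.09 (-0.20 on array 1 and 0.01 on array 2). Ndufc1 was called lower at -0.74 and -0.64, and Ndufv3 lay at 0.55 and 0.54 without a call. All respiration genes, ATP synthase included, had 22 genes measured and a median of -0.28 (-0.36 and -0.16 on the arrays). Calls were 3 lower and 0 higher, beside 3.45% and 3.68% of all genes. Among 22 genes, 0 higher calls says little.

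Nuclear and RNA-processing families held 4 calls, all lower in replica 1, where 3.45% of all genes were called lower and 3.68% higher. All 6 histones measured had means below 0, with a median of -0.49 that was -0.70 on array 1 and -0.24 on array 2, and 5 lay below 0 on both arrays. H3f3a was called among them. H2az1, a variant of histone H2A, was at -0.81 and -0.45, H3c7 at -0.89 and -0.26 and H3f3b, the other H3.3 gene, at -0.57 and -0.22. Their array 1 ratios were larger in size in each case. Of 9 spliceosome core proteins, Snrpg, an Sm protein, was called at -1.04 and -0.62 and Snrnp27, of the tri-snRNP, at -0.89 and -0.77, while the family's median was -0.08 (-0.08 on array 1 and -0.30 on array 2). Of 14 hnRNP and SR proteins, Hnrnpl was called at -0.67 and -0.71, but not in the fit over 6 arrays, and the median was -0.12. In this family array 2 had a median of 0.01 and array 1 of -0.30.

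**Figure D3:**
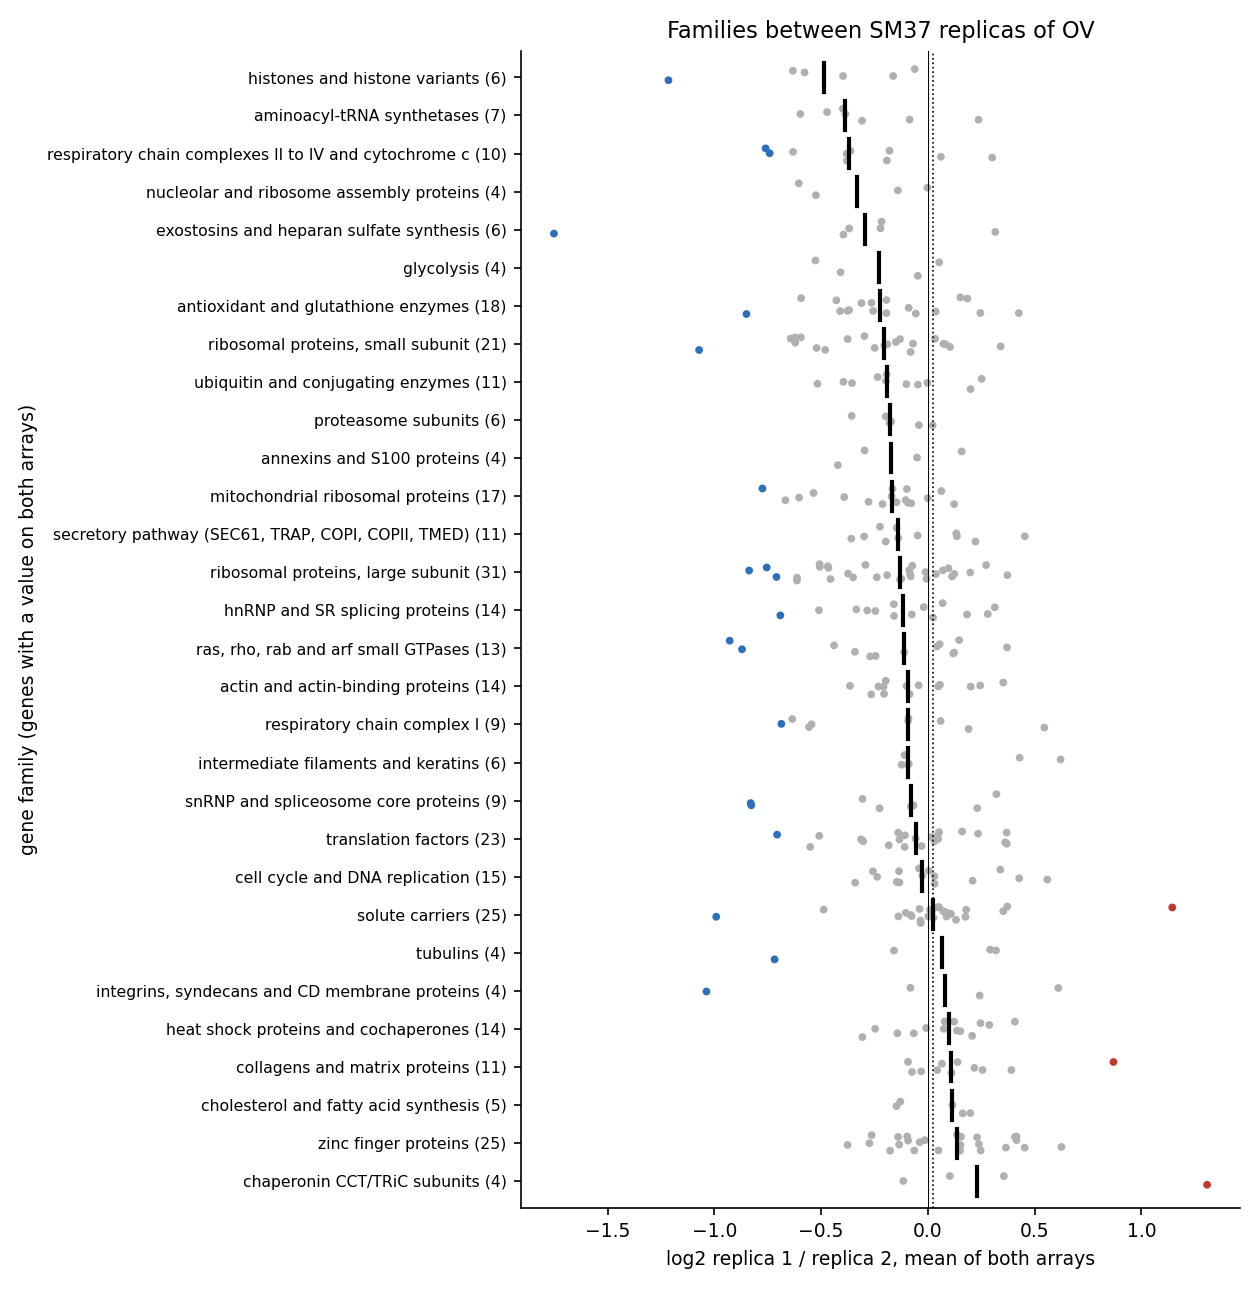
Mean log2 ratio of replica 1 over replica 2 (x axis) for the measured genes of 30 families (rows, number of genes in brackets), with called genes in red (higher) or blue (lower), the family's median as a black bar and the median over all genes, 0.02, as a dotted line. Medians run from -0.49 for histones (-0.70 on array 1 and -0.24 on array 2) to 0.23 for the chaperonin, and 22 of 30 lie below 0.

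Some families lay above 0 or straddled it. Protein folding, with chaperonins, heat shock proteins, prefoldins and prolyl isomerases, had 21 measured genes, a median of 0.10 (0.05 on array 1 and 0.09 on array 2) and 14 above 0. Its call was Cct8. The other chaperonin subunits measured were Cct2 at 0.37 and 0.34, Cct6a at 0.02 and 0.18 and Cct6b, a testis form, at -0.22 and -0.01, so that Cct8 stood apart from subunits of the same complex. Among 11 collagens and matrix proteins the median was 0.11 (0.04 on array 1 and 0.10 on array 2), and Thbs1, which encodes thrombospondin 1, was called higher at 0.79 and 0.95. Zinc finger proteins, mostly transcription factors, had 25 of 219 genes measured and a median of 0.14 (0.10 on array 1 and 0.04 on array 2). Of the 25, 12 lay above 0 and 7 below 0 on both arrays, and 0 were called, beside 7.13% of all genes.

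Solute carriers had a median of 0.03 over 25 genes (0.11 on array 1 and -0.11 on array 2) and a call at each end, Slc9a2 higher and Slc22a2, an organic cation transporter, lower at -0.75 and -1.23. Heparan sulfate synthesis lay mostly below 0. Of 6 genes measured, 5 were below 0 on both arrays and 1 above, with a median of -0.29 (-0.29 on array 1 and -0.21 on array 2). Beside Ext1 at a mean of -1.75, Ext2, its partner in the polymerase, was at -0.30 and -0.14, and Xylt1, which starts the chain on the core protein, at 0.28 and 0.35. Of 18 antioxidant and glutathione enzymes 12 lay below 0 on both arrays (median -0.23, with -0.27 on array 1 and -0.11 on array 2), and Prdx1, a peroxiredoxin, was called lower at -0.73 and -0.97. Among small GTPases Ran, which drives nuclear transport, was called lower at -1.19 and -0.66 and Rhoc at -0.89 and -0.85, and Rhoc alone was called in the fit over 6 arrays. Of 4 tubulins, Tuba1c was called lower at -0.65 and -0.78 while Tubb4b was at 0.33 and 0.25, and in the fit over 6 arrays no tubulin was called.

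Other families had no call, where 7.13% of all genes were called. With 6 to 15 genes measured in each family below, the lack of calls says little. Proteasome subunits had a median of -0.18 over 6 genes (-0.18 on array 1 and -0.05 on array 2) and ubiquitin and its conjugating enzymes of -0.19 over 11. In these Psmb6 was at -0.18 and -0.53 and Sumo2, a ubiquitin-like modifier, at -0.83 and -0.20. Actin and its binding proteins had a median of -0.09 over 14 genes (-0.04 on array 1 and -0.11 on array 2), with Actb at -0.20 and -0.21. Cell cycle and DNA replication genes had a median of -0.03 over 15 (0.04 on array 1 and -0.07 on array 2), and Ccne1, which encodes cyclin E1, was the largest at 0.54 and 0.58.

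Probes of the same gene often gave different ratios. Several probes were measured for 45 genes, with 105 probes in all, and in 23 of these genes the probes had opposite signs. The median gap between the lowest and the highest probe of a gene was 0.39. Such a gap cannot fall below 0. Probes of different genes were not paired for comparison, so that neither the count nor the gap can be read as particular to probes of 1 gene. Over all probes the averaged ratio had an SD of 0.36. The standard error was 0.19 for a single probe and is larger for a difference between probes. A called probe was found in 7 genes, and in none were all probes called. Tpt1, which encodes the translationally controlled tumour protein, had 1 probe at -0.96 and -0.97 on the 2 arrays and another at 0.08 and -0.35. Csnk2a1, the catalytic subunit of casein kinase 2, had 1 probe at 1.40 and 0.57 and another at 0.33 and -0.33. Myh10, a nonmuscle myosin heavy chain, had a probe at -1.11 and -0.31, called here but not in the fit over 6 arrays, and another at 0.06 and 0.29. In Eef1a1, the elongation factor that brings tRNA to the ribosome, each probe kept its sign on both arrays, with -0.51 and -0.60 for the first and 0.21 and 0.16 for the other. Of the 23 genes with opposite signs, 12 were of this kind. Where a probe lies along its transcript is not given in the files used here. Over the 43 genes with 2 probes, the correlation between probes of a gene was 0.135, a description across genes.

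**Figure D4:**
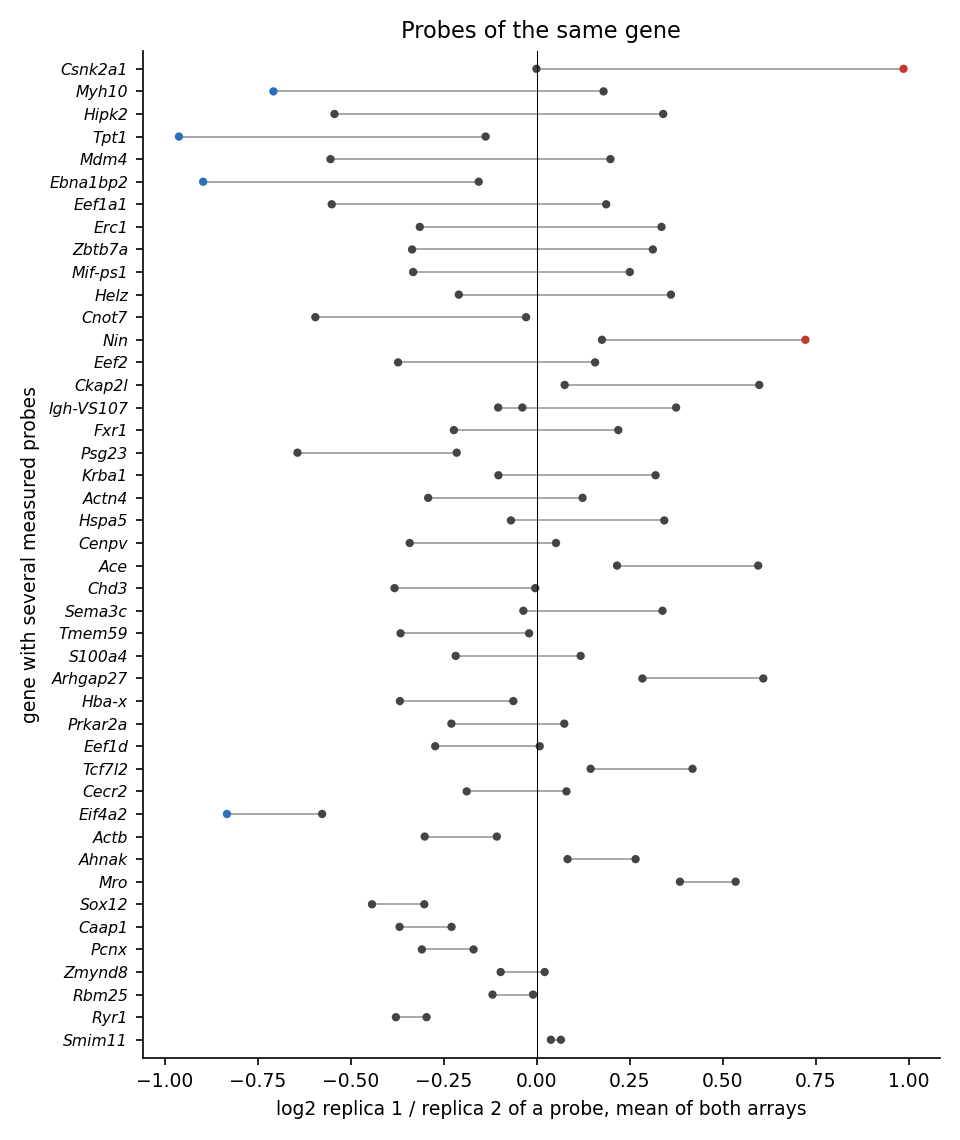
Mean log2 ratio of replica 1 over replica 2 (x axis) for each measured probe of 44 genes with several probes (rows), joined by a line, with called probes in red (higher) or blue (lower); Tcrb-V8.2, which has 16 probes, is left out. Genes are ordered by the gap between their probes, from Smim11 at 0.03 to Csnk2a1 at 0.99.

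Set beside the other targets on the same 1157 probes, the averaged SM37 replicas had the highest CR. It was 0.723 for SM37, 0.525 for GA, 0.399 for IVTIII, 0.272 for SMART and 0.237 for the single array of unamplified replicas. An average ratio over 2-fold was found for 17 probes in SM37, 9 in GA, 4 in IVTIII and 0 in SMART and in unamplified cDNA. On single arrays the order differed: the CR of the lower and the higher array was 0.786 and 0.825 for SM37, 0.671 and 1.01 for GA, 0.458 and 0.474 for IVTIII and 0.388 and 0.496 for SMART. The arrays of GA thus lay on either side of both SM37 arrays, and those of IVTIII and SMART below them. Each method had 1 pair of amplifications, so that no test between methods was made. Turned by their dye labels, the arrays correlated across these probes with r of 0.610 in SM37 and 0.467 in IVTIII, but -0.262 in SMART and -0.274 in GA. Averaged as deposited, without turning, the CR was 0.353 for SMART and 0.679 for GA, against 0.356 for SM37. The order of GA and IVTIII depended on the probes. Over all probes measured on both arrays of a method, the turned average had a CR of 0.607 in IVTIII and 0.496 in GA. These sets held 7139 and 9708 probes, of which 126 and 60 passed 2-fold. SM37 still had the highest CR, 0.723. The paper's averaged data also place IVTIII above GA in CR.

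**Figure D5:**
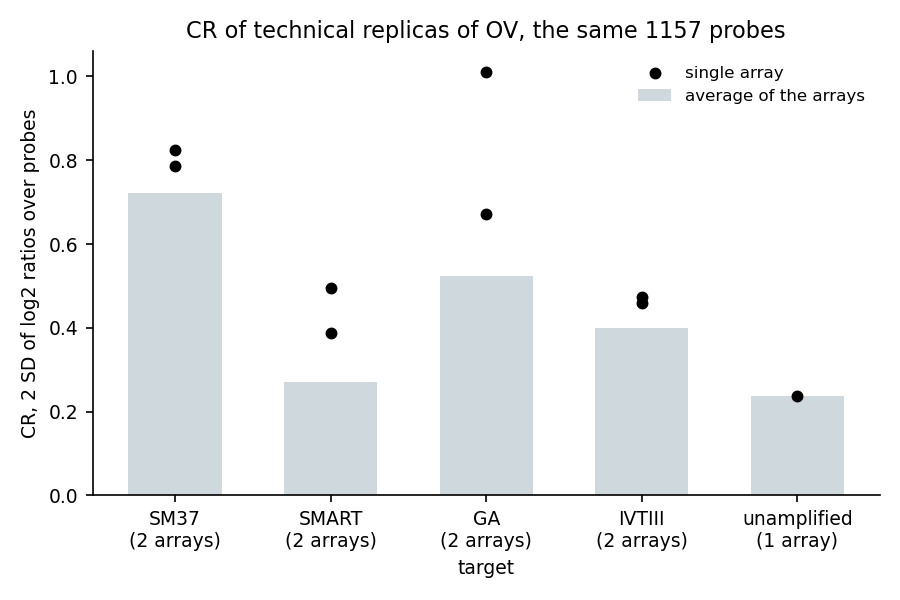
CR, 2 SD of the log2 ratios of technical replicas of OV over the same 1157 probes (y axis), for 5 targets, with the average of the arrays as bars and single arrays as points. The SM37 bar, 0.723, is the highest, whereas 1 of the GA arrays has the highest point, 1.01.

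Called probes were also set beside the rest on arrays that the fit did not use. Over the 4 SM37 arrays of OV against 3T3 their SD had a median of 0.20 (135 probes with all values), beside 0.19 for 1695 probes that were not called. The median size of the averaged ratio was 0.10 beside 0.08 in SMART replicas, 0.13 beside 0.12 in GA, 0.08 beside 0.09 in IVTIII and 0.07 beside 0.07 in unamplified cDNA. Averaged as deposited, it was 0.13 beside 0.11 in SMART and 0.25 beside 0.19 in GA. In GA, 4 of 144 called probes passed 2-fold beside 10 of 1947 others, and averaged as deposited 3 beside 13. Of the 4, a probe without a gene name was above 2-fold on both GA arrays, at -1.20 and -1.65, and had a mean of -1.11 in SM37. The other 3 passed 2-fold on 1 GA array, among them AY036118 at -0.11 and -2.01 and Fance, of the Fanconi anaemia core complex, at 3.27 and -0.35. These probes were picked out after their values were seen.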

How the data were processed

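Per the methods, the authors scanned 2-color oligonucleotide arrays, subtracted the background and normalized the log ratios by print-tip lowess in limma. The deposited values are log2 ratios, used as they are. Conditions, dyes and replicas came from the labels. Of 21997 probes, 231 controls were left out. Of the others, 16632 have 1 gene symbol, and probes of 1 symbol were averaged. Biotypes and gene spans came from RefSeq. The test was limma 3.58.1 in R 4.3.3 (lmFit and eBayes, prior proportion 0.01, 1 residual degree of freedom), with calls at an LOD above 0. It was also run on simulated data, but with less noise per array than the fit gave for the real arrays. That run is therefore no check on the calls here. Both arrays were taken as replicates, though they are a dye swap of 1 pair of targets. The number of arrays limits the precision. Rank correlations used scipy 1.17.1 in Python 3.11.15 and figures matplotlib 3.10.9. Genes named were the 12 highest and 12 lowest called genes with 1 sign on both arrays, clone names left out, and up to 4 called members of a family, or up to 2 with the largest ratio where none was called, and genes whose probes disagree in sign while 1 of them is called. Genes added to show contrasts within a family or to check markers were chosen after their values were seen. The members and lists were chosen with earlier results of these data known.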

Additional observations from a re-analysis of the deposited data

How the results depend on the processing

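The number of probes called, 195, moved with the rule: 296 for probes with a value on at least 1 array, 313 at a prior proportion of 0.05, 422 at a Benjamini-Hochberg adjusted p under 0.05, 107 in the fit over 6 SM37 arrays and 106 in that fit with a dye term. It ranged from 38 to 69 when either array was left out of that fit, with the lone array assumed to vary like the others. Rules added after the data were seen gave 315 in the fit over 6 arrays and 542 in robust eBayes, both by adjusted p. Of the probes in the fit over 6 arrays 101 were among the 195. Genes called went from 159 to 88 in the fit over 6 arrays. Probes over 2-fold, 40 on average, numbered from 60 to 107 on a single array and 14 on each array in the same direction. The CR of 0.723 became 0.608 from median absolute deviations and 0.374 as deposited, and was 0.785 to 0.842 on single arrays. Families with a median below 0 stayed at 22 of 30 when arrays were centred and were 20 on either array alone. The error of the fit over 2 arrays was the same for every gene, so that genes whose arrays differ were called as readily as others. No paired analysis was possible because each array holds both replicas of 1 pair and no test between groups was made. The array numbers that SM37, SMART, GA and IVTIII share mark the dye orientation and no shared sample.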

Other observations

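Some called genes outside the listed families were picked after their values were seen, from the called genes alone, and are given as single values with no statement about their pathways. Hyal1, a hyaluronidase, was at 1.04 on array 1 and 0.90 on array 2. Gpc1, a heparan sulfate proteoglycan of the cell surface, was called higher at 0.38 and 1.26, and Gpc6, of the same family, lower at -0.66 and -1.17. Of this pair Gpc6 alone was called in the fit over 6 arrays. Arsb, a lysosomal sulfatase, was at -0.48 and -0.88.

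Rnf125, a ubiquitin ligase, was at 1.19 and 0.80 and Usp18, which removes the ubiquitin-like ISG15, at -1.03 and -0.64. Crebbp, an acetyltransferase, was at 1.13 and 0.80. These 3 were also called in the fit over 6 arrays, unlike Setdb1, a histone methyltransferase, at -1.09 and -0.51. Rny1, a small RNA of the Ro particle, was called at -0.88 and -0.75.

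Of 192 genes that RefSeq names lncRNA, 16 were called, and of 1975 protein-coding genes, 136, beside 7.13% of all genes.

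Genomic span, from start to end of the gene in RefSeq, was known for 2203 of 2230 genes and had a Spearman's rho of 0.073 with the mean ratio, a description across genes. Genes of translation, respiration, RNA processing and protein degradation, roles chosen after their medians were seen to be low, were set beside the others in 5 bins of span with about equal numbers of genes. From the shortest bin to the longest their medians were -0.18 (69 genes), -0.19 (49), -0.03 (25), -0.19 (17) and -0.06 (5). The others had medians of 0.01, 0.03, 0.05, 0.04 and 0.04. Span includes introns and is not transcript length.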
